A study of Mus musculus with 16 samples.

Results

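The genes of the constitutive proteasome were followed in cultured mouse sensory ganglia in which HIF-1α was knocked down or overexpressed and the axons were cut. Members were all symbols on the array that begin with Psma to Psmf and a number, without the immunoproteasome genes Psmb8, Psmb9 and Psmb10. This gave 39 of the 17914 gene symbols. One of them, Psmc3ip, matches by its letters only (it encodes a partner protein of meiotic recombination) and is described apart. The remaining 38 comprise 14 genes of the 20S core, 16 of the 19S regulatory particle, and 8 of assembly chaperones, activators and an inhibitor, measured by 58 probes.

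The tissue was dorsal root ganglia of CD-1 embryos at day 13, grown as spot cultures, given lentivirus on day 4 in culture and, in the injured groups, cut with a blade on day 7. Knockdown cultures carried MISSION shRNAs against HIF-1α (the study names 2 hairpins), with 2 arrays each for uninjured cultures and for 3 h and 12 h after axotomy. Overexpression cultures carried human HIF-1α cDNA in the constitutive FUGW vector, with 1 array uninjured, 2 at 3 h and 1 at 12 h. Control cultures carried a control shRNA, with 2 arrays at each time. The control shRNA served as control for both constructs, so the cDNA vector had no control of its own, and the knockdown and overexpression comparisons share 6 control arrays. The labels do not say that replicates came from separate cultures, so the p-values reflect only how these arrays vary, possibly for technical reasons.

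The 26S proteasome degrades proteins tagged with ubiquitin. Its barrel-shaped 20S core has outer rings of α subunits and inner rings of β subunits, of which Psmb5, Psmb6 and Psmb7 carry the chymotrypsin-like, caspase-like and trypsin-like proteolytic sites, and a 19S regulatory particle, made of a base with ATPases and a lid, receives, strips and unfolds the substrate. HIF-1α is itself a substrate in oxygenated cells, after hydroxylation and ubiquitin transfer by the Vhl ligase. In neurons proteasomes work in axons and synapses as well as in the cell body, and the inhibitor protein encoded by Psmf1 has been tied to their transport along axons in flies and mice.

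The single Hif1a probe had intensities of -7.15 to 1.40 on the knockdown arrays and -5.20 to 5.22 on the overexpression arrays, which carry a human cDNA, against 21.3 to 42.7 on the control arrays. Arrays of the same group correlated at 0.994 to 0.996 over the tested genes and arrays of other constructs at 0.918 to 0.954. Summed intensity of the 6 tested neuronal markers of 8 on the array was 41371 to 44356 in knockdown and 32552 to 35645 in overexpression cultures, against 53132 to 58920 in control cultures, with Nefl and Snap25 at background. Prph (-1.38 in knockdown and -1.30 in overexpression, as log2 differences from control) and Calca (-2.09 and -0.25, brightest probe) fell in both. Tubb3 (-0.27) fell in the knockdown and Stmn2 (-1.54) and Pou4f1 (-0.24) in overexpression, while Isl1 rose in both (0.97 and 0.88). The Calca difference in overexpression depended on the probe, with -0.14 on ILMN_3101815 and 0.44 on the dim ILMN_2744927. The 3 tested glial markers summed to 7528 to 9404 in knockdown and 7249 to 8547 in overexpression, against 16860 to 19873 in control cultures. Fabp7 and Foxd3 were at background. Fibroblast markers (3 tested of 7) summed to 343 to 487 in knockdown and 183 to 239 in overexpression, against 81.7 to 135 in control cultures, with Col1a1, Col1a2, Col3a1 and Lum at background. The 3 did not move together: Dcn (1.13 in knockdown and -0.60 in overexpression) and Pdgfra (1.84 and -0.35) rose in the knockdown and fell in overexpression, while Twist2 fell in the knockdown and rose in overexpression. Macrophage markers (3 tested of 6) summed to 103 to 140 in knockdown and 200.3 to 290.3 in overexpression, against 93.7 to 129 in control cultures, and endothelial markers (4 of 6) to 38.6 to 72.8 in knockdown and 28.2 to 89.1 in overexpression, against 15.1 to 65.9 in control cultures. Of the macrophage markers in overexpression, Aif1 rose (0.90), Csf1r did not pass (0.12) and Cd68, C1qa and Itgam were at background. C1qb was above 16 on 3 arrays, all control. Its overexpression arrays ran from -6.71 to 1.92, at background, so no difference is given for it. These marker levels moved with the constructs, and their part in the results was not tested. In bulk cultures, fewer cells of a type and less RNA per cell cannot be told apart.

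Promoters are shown for 5 members that the results turn on: the inhibitor and the activator with the widest knockdown differences, the 2 members with the largest overexpression rises, and the catalytic subunit that rose. Each window runs from 250 bases before to 50 bases after the RefSeq start of the gene in the GRCm38.p6 assembly, and 33 of the 38 members had one. The windows lie at chr2:151741261-151741560 on the minus strand (Psmf1), chr11:30771525-30771824 on the plus strand (Psme4), chr11:70525107-70525406 on the plus strand (Psmb6), chr14:55578244-55578543 on the plus strand (Psme1) and chr3:95042565-95042864 on the minus strand (Psmd4). Capitals mark matches on either strand to the letters of the hypoxia response core, ACGTG or GCGTG, and of the antioxidant response core, TGACNNNGC, the kind of element through which the factor NRF1 (Nfe2l1) drives proteasome genes.
Psmf1: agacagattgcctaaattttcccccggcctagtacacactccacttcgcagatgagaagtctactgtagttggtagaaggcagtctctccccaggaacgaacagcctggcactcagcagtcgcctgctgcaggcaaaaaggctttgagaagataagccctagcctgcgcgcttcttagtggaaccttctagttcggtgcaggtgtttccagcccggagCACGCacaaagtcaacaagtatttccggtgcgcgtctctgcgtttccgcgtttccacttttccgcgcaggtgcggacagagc
Psme4: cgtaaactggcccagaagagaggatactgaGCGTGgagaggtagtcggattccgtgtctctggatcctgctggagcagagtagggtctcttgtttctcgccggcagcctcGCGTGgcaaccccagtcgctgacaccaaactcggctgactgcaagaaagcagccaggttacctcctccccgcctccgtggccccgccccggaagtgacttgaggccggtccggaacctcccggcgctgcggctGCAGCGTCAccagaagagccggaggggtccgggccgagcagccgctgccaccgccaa
Psmb6: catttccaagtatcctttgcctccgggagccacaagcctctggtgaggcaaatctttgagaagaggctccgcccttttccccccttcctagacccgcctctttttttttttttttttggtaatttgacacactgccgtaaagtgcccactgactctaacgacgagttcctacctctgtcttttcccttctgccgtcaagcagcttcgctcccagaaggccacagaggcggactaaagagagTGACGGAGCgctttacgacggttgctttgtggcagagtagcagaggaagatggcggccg
Psme1: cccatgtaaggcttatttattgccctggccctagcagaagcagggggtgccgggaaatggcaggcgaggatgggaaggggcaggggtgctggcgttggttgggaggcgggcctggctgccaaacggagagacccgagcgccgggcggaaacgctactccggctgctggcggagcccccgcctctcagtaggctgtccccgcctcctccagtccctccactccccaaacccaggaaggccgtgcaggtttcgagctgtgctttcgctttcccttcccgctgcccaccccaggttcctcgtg
Psmd4: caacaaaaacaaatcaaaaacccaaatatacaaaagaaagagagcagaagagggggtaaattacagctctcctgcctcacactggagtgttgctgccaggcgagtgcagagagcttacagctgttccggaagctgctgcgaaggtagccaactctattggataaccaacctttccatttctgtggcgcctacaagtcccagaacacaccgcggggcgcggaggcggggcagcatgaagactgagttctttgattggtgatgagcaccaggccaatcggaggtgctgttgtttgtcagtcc
In the Psmf1 window the match is to GCGTG, 32 bases before the start and on the opposite strand. The Psme4 window holds GCGTG at 220 and 140 bases and TGACNNNGC at 7 bases before the start, the Psmb6 window holds TGACNNNGC at 9 bases before it, and the Psme1 and Psmd4 windows hold none of the 3. Over the 33 members, GCGTG occurred in 18 (54.5%, against 35.2% of 27025 promoters), ACGTG in 7 (21.2%, against 21.8%) and TGACNNNGC in 6 (18.2%, against 14.0%). These matches are letters in a window and are given as a description.

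Of the 38 genes, 35 had a probe above an intensity of 16 on at least 2 of the 16 arrays and were tested among 11151 genes. Psma1, Psma3 and Psma6 of the α ring have a single probe each, above 16 on 0 of 16 arrays, and are not described further. Psmc6, a base ATPase, was above 16 on 3 arrays, all control, with medians of 9.97 in knockdown, -0.23 in overexpression and 13.7 in control cultures. No fold is given for it. Differences are on the log2 scale, averaged over the 3 times, and carry the standard error (SE) of the fit and an adjusted p from limma with Benjamini-Hochberg adjustment over all genes tested. A gene passed at an adjusted p under 0.05. Where 3 intensities are given for the 6 arrays of a construct, they are its lowest, median and highest.

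The first question was how proteasome genes differ between cultures with Hif1a knocked down and control cultures. Of 35 genes, 5 rose and 10 fell. That is 42.9% of them, against a background of 59.7% of all genes tested, 31.3% upward and 28.3% downward. The genes with the widest differences lay outside the core: the inhibitor gene Psmf1 was 2.88-fold lower, the activator gene Psme4 rose 1.60-fold, and the chaperone gene Psmd5 and the ATPase gene Psmc3 fell. Most others moved little: 31 of the 35 differed by less than 0.5, as did 8216 of all 11151 genes, and the medians were -0.02 and -0.00.

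In the core, 2 of 11 genes rose and 0 fell, with a median difference of 0.03. At an unadjusted p under 0.05, 3 core genes passed. Psmb1, a non-catalytic β subunit, had a lowest, median and highest intensity of 4463, 5238 and 6124 on the 6 knockdown arrays, against 4159, 4289 and 4755 on the 6 control arrays, and rose by 0.26 (SE 0.0799, adjusted p = 0.00881). The 2 sets of arrays overlap, as they do for each of the 11 core genes. The other was the α subunit Psma7, which rose by 0.17 (adjusted p = 0.0393), a call kept under 15 of 25 alternative settings. Its second probe, of similar brightness, did not pass in the probe-level fit (0.13, adjusted p = 0.0938).

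The catalytic subunits did not pass in the knockdown. Psmb5 had 442, 497 and 561 in knockdown and 464, 565 and 663 in control cultures, a difference of -0.16 (SE 0.0751, adjusted p = 0.0821). Psmb6 had 4284, 4603 and 4809 in knockdown and 4116, 4490 and 4835 in control cultures (0.03, SE 0.0673). Psmb7 had 4004, 4143 and 5335 in knockdown and 4037, 4651 and 4861 in control cultures (-0.05, SE 0.0767). For all 3 the knockdown and control arrays overlap. Without replicate 2 of the uninjured control, Psmb5 passed in the knockdown (adjusted p = 0.0234).

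In the regulatory particle, 2 of 16 genes rose and 4 fell, with a median of 0.09. The ATPase Psmc3 had 1919, 1981 and 2176 on the knockdown arrays, against 2650, 2901 and 3072 on the control arrays, and fell by 0.50 (SE 0.0631, adjusted p = 5.37e-07). Psmc1, the ATPase whose tail helps open the gate of the core, had 1941, 2167 and 2597 in knockdown and 1528, 1711 and 1889 in control cultures, and rose by 0.37 (SE 0.0744, adjusted p = 2.17e-04). So the 2 ATPases, which sit in the same ring, had opposite differences, each with no overlap between the arrays of the 2 groups. The lid subunit Psmd13 had 6295, 6839 and 7969 in knockdown and 5654, 5839 and 6240 in control cultures, and rose by 0.23 (SE 0.0661, adjusted p = 0.00570), again with no overlap. The remaining 3 that fell were the ubiquitin receptor Psmd4 (-0.19) and the lid subunits Psmd6 (-0.19) and Psmd12 (-0.15), with overlapping arrays and adjusted p of 0.0234, 0.0415 and 0.0473. A second, dimmer Psmd6 probe did not pass (-0.03, adjusted p = 0.809).

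Chaperones, activators and the inhibitor held the larger differences. Psmf1, whose promoter window has GCGTG on the opposite strand, had 1666, 1819 and 1993 on the knockdown arrays, against 4377, 5536 and 6095 on the control arrays, and fell by 1.53 (SE 0.0742, adjusted p = 1.83e-13). Psme4, whose product caps the core in the nucleus and is known for degradation of acetylated histones, had 3549, 3930 and 4347 in knockdown and 2254, 2361 and 2713 in control cultures, and rose by 0.68 (SE 0.0685, adjusted p = 2.38e-08). Every knockdown array stood outside the control range for both genes, far below it for Psmf1 and above it for Psme4.

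The chaperone Psmd5, which holds base intermediates during assembly, had 39.6, 53.3 and 74.1 in knockdown and 103, 114 and 122 in control cultures, and fell by 0.56 (SE 0.0763, adjusted p = 1.64e-06). Its intensities are close to the background, so the difference on this scale understates the ratio. Psme3, which forms the nuclear activator ring, had 938, 1006 and 1117 in knockdown and 1165, 1280 and 1369 in control cultures, and fell by 0.30 (SE 0.0690, adjusted p = 8.88e-04). Neither gene's arrays overlap. The other falls were the chaperone Psmd10 (-0.22, adjusted p = 0.0108) and both subunits of the interferon-inducible activator, Psme2 (-0.22, adjusted p = 0.0125) and Psme1 (-0.16, adjusted p = 0.0485).

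The arrays of the 2 groups did not overlap for 7 of 35 genes, against a background of 38.9%. Of the 15 calls, 9 held under each of 25 alternative settings. The other 6 (Psma7, Psmd4, Psmd6, Psmd12, Psme1, Psme2) were lost under at least 1. Without replicate 1 of the uninjured control, 6 genes fell in place of 10.

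**Figure D1:**
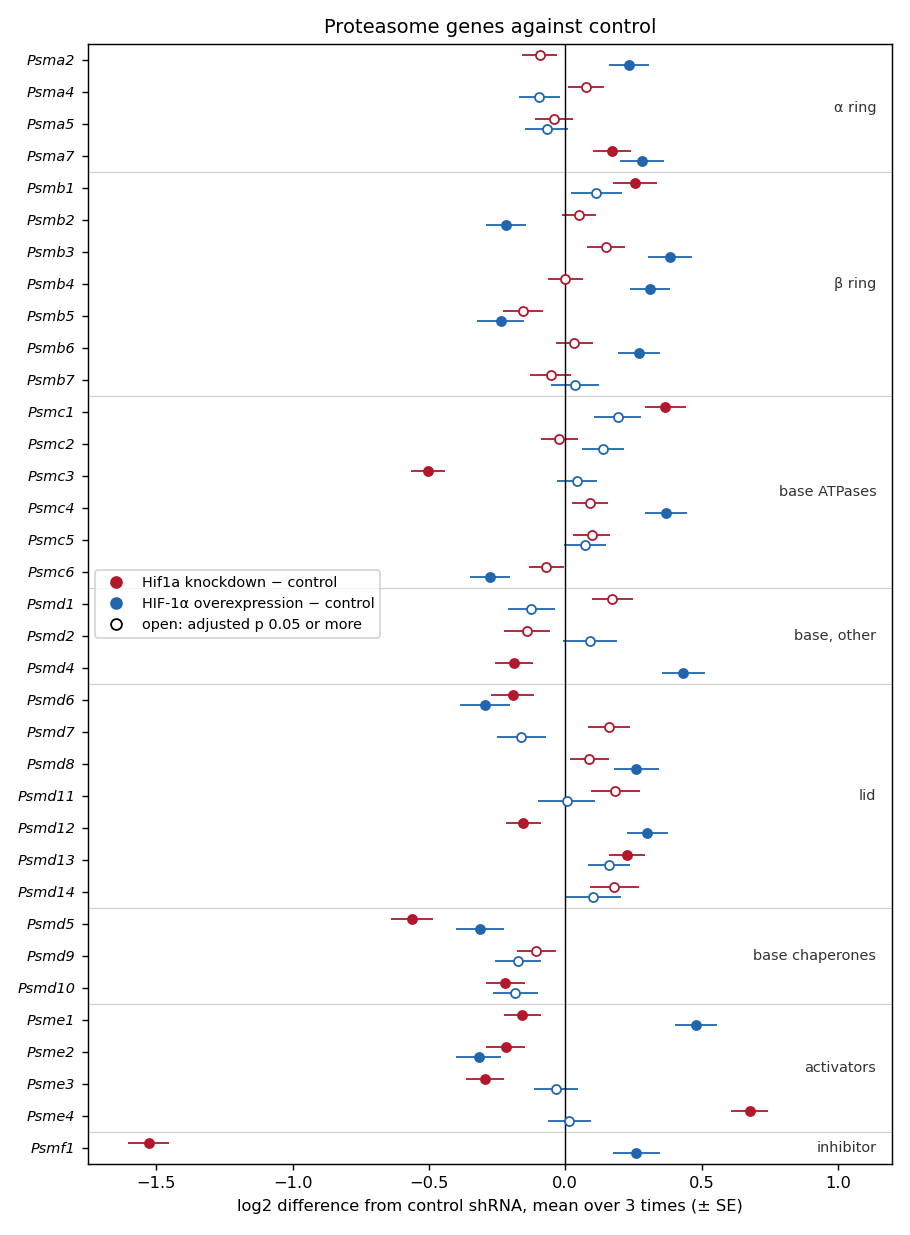
Log2 difference from control shRNA, averaged over the 3 times, for the 35 tested proteasome genes by role; red circles are Hif1a knockdown and blue circles HIF-1α overexpression, bars are ± SE, and open circles have an adjusted p of 0.05 or more. Each gene is shown by its brightest probe. Knockdown values run from -1.53 (Psmf1) to 0.68 (Psme4) and overexpression values from -0.32 (Psme2) to 0.48 (Psme1), and Psmc6 is at background.

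The second question was how cultures with added human HIF-1α differ from the same control arrays. Of 35 proteasome genes, 11 rose and 6 fell. That is 48.6% of them, against a background of 55.3% of all genes tested, 25.8% upward and 29.4% downward. The falls include Psmc6, which passed the filter only through control arrays. On the brightest probe of each gene, differences ran from -0.32 to 0.48. On these probes all 35 were under 0.5, as were 8341 of all 11151 genes, and the medians were 0.07 and -0.02. Second probes of Psmf1 (-1.48) and Psmd12 (-0.61) differed by more than 0.5, as given with the probe pairs. With cyclic loess normalization, 14 rose and 4 fell, which moved the upward share of calls to 77.8%, against 64.7%.

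In the core, 5 of 11 genes rose and 2 fell, with a median of 0.11. The β subunit Psmb3 had 6570 on the uninjured array, 6525 and 6295 on the 3 h arrays and 6306 on the 12 h array of the overexpression cultures, against a lowest, median and highest of 4352, 4975 and 5448 on the control arrays. It rose by 0.38 (SE 0.0802, adjusted p = 3.53e-04), with each overexpression array above each control array. Psmb4 (0.31, adjusted p = 0.00103), Psma7 (0.28, adjusted p = 0.00532) and Psma2 (0.23, adjusted p = 0.0104) rose too. Psmb2 fell by 0.22 (adjusted p = 0.0155) on its brightest probe and not on its second.

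The 3 catalytic subunits differed among themselves under overexpression. Psmb6, the caspase-like subunit with TGACNNNGC in its promoter window, had 5389 uninjured, 5748 and 6062 at 3 h and 4954 at 12 h, against 4116, 4490 and 4835 in control cultures, and rose by 0.27 (SE 0.0777, adjusted p = 0.00558). Psmb5, the chymotrypsin-like subunit, had 514 uninjured, 439 and 448 at 3 h and 449 at 12 h, against 464, 565 and 663 in control cultures, and fell by 0.24 (SE 0.0867, adjusted p = 0.0253). The arrays of Psmb6 do not overlap, and those of Psmb5 do. TGACNNNGC occurs in a promoter window of Psmb5 as well, which fell, along with ACGTG and GCGTG.

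Psmb7, the trypsin-like subunit, had 5237 uninjured, 4580 and 4407 at 3 h and 4341 at 12 h, against 4037, 4651 and 4861 in control cultures (0.03, SE 0.0885, adjusted p = 0.764), while 1 of its other 2 probes, ILMN_1233153, rose by 0.23 (adjusted p = 0.0447). The call on Psmb5 was lost without replicate 1 of the uninjured control (adjusted p = 0.0812) or replicate 1 of the 12 h control (adjusted p = 0.0685) and with cyclic loess (adjusted p = 0.0828).

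In the regulatory particle, 4 of 16 genes rose and 2 fell, with a median of 0.10. The ubiquitin receptor Psmd4 had 10396 uninjured, 10396 and 10276 at 3 h and 11324 at 12 h, against 7218, 7945 and 8746 in control cultures, and rose by 0.43 (SE 0.0797, adjusted p = 9.34e-05). The ATPase Psmc4 had 5475 uninjured, 5934 and 5822 at 3 h and 5420 at 12 h, against 4012, 4255 and 4640 in control cultures, and rose by 0.37 (SE 0.0764, adjusted p = 3.24e-04). For both genes all 4 overexpression arrays lie above the control range, and the promoter window of Psmd4 held none of the searched letters. The lid subunits Psmd12 (0.30, adjusted p = 0.00188) and Psmd8 (0.26, adjusted p = 0.0108) rose, Psmd12 on its brightest probe and not on its second.

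The falls in the regulatory particle were in dim probes. The lid subunit Psmd6 had 32.4 uninjured, 32.5 and 45.9 at 3 h and 33.3 at 12 h, against 45.3, 54.3 and 87.5 in control cultures, and fell by 0.29 (SE 0.0917, adjusted p = 0.0100). The highest overexpression array exceeds the lowest control array by a small margin. The second Psmd6 probe, dimmer still, did not pass (-0.14, adjusted p = 0.207). Psmc6 is counted as a fall, at intensities of -6.27, -0.83, 0.36 and 3.68 in overexpression and 6.63, 13.7 and 18.5 (lowest, median, highest) in control cultures. It passed the filter only through control arrays, so its call is not evidence of a fall. With intensities floored at 16 it did not pass (adjusted p = 0.184). All its overexpression arrays are at background, so no difference is given.

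Among the other genes the interferon-inducible activator split. Psme1 had 2070 uninjured, 2212 and 2293 at 3 h and 1971 at 12 h, against 1293, 1505 and 1622 in control cultures, and rose by 0.48 (SE 0.0774, adjusted p = 2.11e-05). Psme2, whose product joins that of Psme1 in a mixed ring, had 258 uninjured, 245 and 220 at 3 h and 214 at 12 h, against 286, 301 and 347 in control cultures, and fell by 0.32 (SE 0.0830, adjusted p = 0.00270). All overexpression arrays lie above the control range for Psme1 and below it for Psme2.

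Psmd5 had 85.0 uninjured, 81.9 and 64.1 at 3 h and 75.8 at 12 h, against 103, 114 and 122 in control cultures, and fell by 0.31 (SE 0.0881, adjusted p = 0.00469), with no overlap. Psmf1 rose by 0.26 (SE 0.0857, adjusted p = 0.0139) on its brightest probe and fell on its second, and Psme4 did not pass (0.01, SE 0.0791). For 17 of 35 genes, Psmc6 at background among them, the overexpression and control arrays did not overlap, against a background of 41.7%. Of the 17 calls, 12 held under each alternative setting that gave a value, and the 5 exceptions were Psmb2, Psmb5, Psmc6, Psmd12 and Psmf1.

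**Figure D2:**
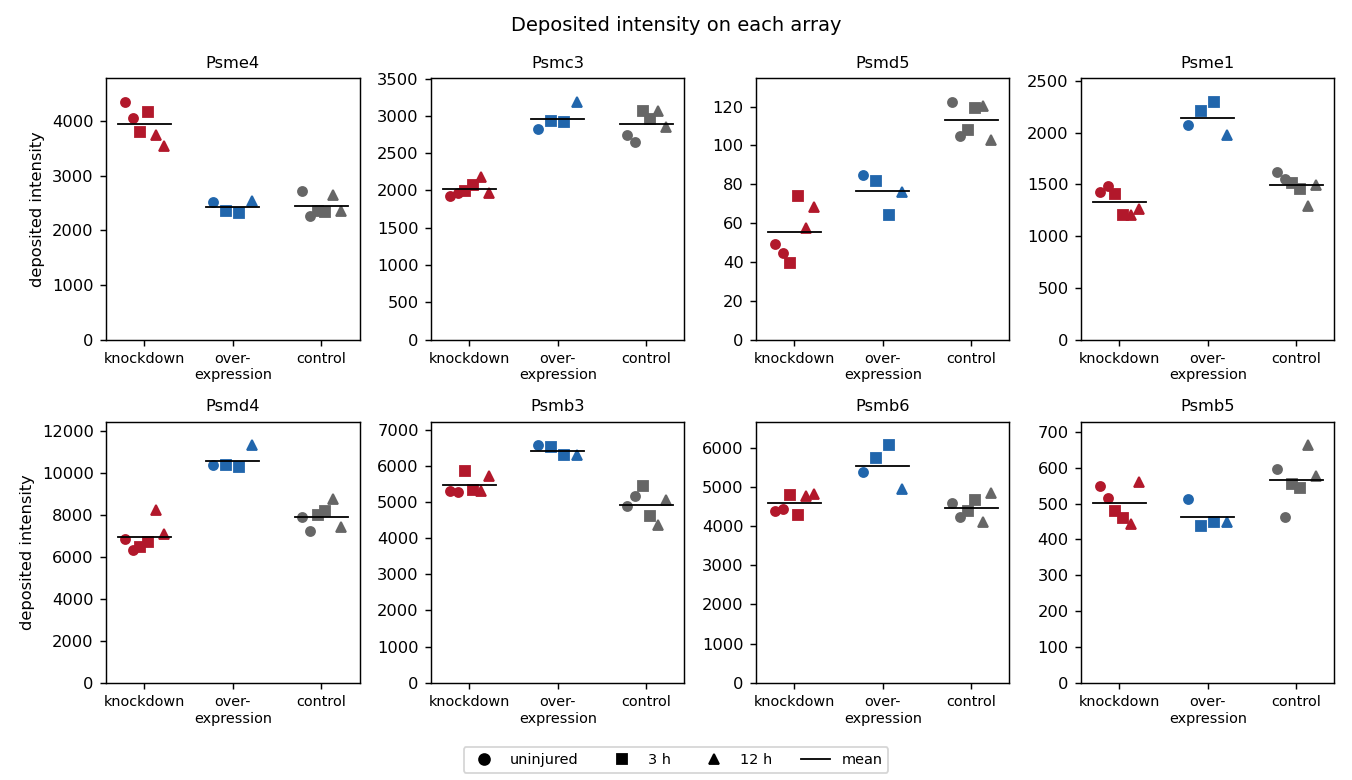
Deposited intensity (linear scale from 0) on each of the 16 arrays for 8 proteasome genes, by construct, with circles for uninjured cultures, squares for 3 h and triangles for 12 h after axotomy and a line at the mean of each construct. Psme4 stands out in knockdown, and Psme1, Psmd4 and Psmb3 lie above the control arrays in overexpression.

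The difference of overexpression from knockdown uses no control array, although its SE comes from the fit to all 16 arrays. Of 35 genes, 13 were higher in overexpression and 5 lower, against backgrounds of 28.8% and 34.0% of all genes tested. Either way it was 51.4% of the proteasome genes and 62.7% of all. The lower genes include Psmc6, which was at background in both constructs. Psmf1 had 6405 uninjured, 7123 and 6361 at 3 h and 6240 at 12 h in overexpression, against 1666, 1819 and 1993 in knockdown cultures, a difference of 1.79 (SE 0.0857, adjusted p = 1.19e-13). On the second Psmf1 probe it was 0.41 (adjusted p = 0.00299). Psme4 had 2514 uninjured, 2349 and 2316 at 3 h and 2545 at 12 h in overexpression, against 3549, 3930 and 4347 in knockdown cultures, a difference of -0.66 (SE 0.0791, adjusted p = 2.42e-07). In both genes the 2 sets of arrays stand clear of each other.

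Psme1 was higher in overexpression by 0.64 (SE 0.0774, adjusted p = 3.20e-07), with a knockdown range of 1199 to 1480. Psmd4 was higher by 0.62 (SE 0.0797, adjusted p = 6.77e-07), with a knockdown range of 6330 to 8219. Psmc3 had 2821 uninjured, 2938 and 2914 at 3 h and 3184 at 12 h in overexpression and was higher by 0.55 (SE 0.0728, adjusted p = 1.13e-06). The arrays of the 2 constructs do not overlap for these 3 genes.

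Psmd7, the lid partner of the deubiquitinase Psmd14, had 2648 uninjured, 2522 and 3028 at 3 h and 2485 at 12 h in overexpression, against 3028, 3244 and 3702 in knockdown cultures, and was lower by 0.32 (SE 0.0889, adjusted p = 0.00328). The base scaffold Psmd1 had 354 uninjured, 356 and 323 at 3 h and 346 at 12 h, against 380, 436 and 520 in knockdown cultures, and was lower by 0.30 (SE 0.0859, adjusted p = 0.00474). Psmd1 did not overlap and Psmd7 met at its edge. Neither Psmd7 nor Psmd1 passed in either comparison with control. Psmb2, a non-catalytic β subunit, had 4790 uninjured, 5623 and 5237 at 3 h and 5197 at 12 h, against 5660, 6259 and 6709 in knockdown cultures, and was lower with no overlap by 0.27 (SE 0.0731, adjusted p = 0.00310), while its second probe was 0.12 higher without passing (adjusted p = 0.198).

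Psmb6 was higher by 0.24 (SE 0.0777, adjusted p = 0.0115), while Psmb5 (-0.08, SE 0.0867) and Psmb7 (0.09, SE 0.0885) did not pass. The others higher in overexpression included Psmd12 (0.45, on its brightest probe), Psma2 (0.33), Psmb4 (0.31), Psmc4 (0.28) and Psme3 (0.26). The rest were Psmd5 (0.25), Psmb3 (0.23) and the base scaffold Psmd2 (0.23). On the dim second Psmd12 probe the difference was -0.34 and passed in the opposite direction (adjusted p = 0.0180). Psmc6 was counted as lower with both groups below 16, where no difference can be read. Arrays of the 2 constructs did not overlap for 13 of 35 genes, against a background of 48.1%. Of the 18 calls, 13 held under each alternative setting that gave a value, and the exceptions were Psmb2, Psmc6, Psmd2, Psmd5 and Psmd12. The 8 genes Psma4, Psma5, Psmb7, Psmc2, Psmc5, Psmd9, Psmd11 and Psmd14 (the lid deubiquitinase) passed in none of the 3 construct comparisons on their brightest probe, with differences from -0.18 to 0.18. Other probes of Psmb7 and Psmd9 did pass, as given with the probe pairs.

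Core and regulatory particle were then set side by side at each time. In the knockdown the core medians were -0.00 uninjured, 0.00 at 3 h and 0.10 at 12 h, and those of the regulatory particle 0.04, 0.09 and 0.07. In overexpression the core medians were 0.25, 0.21 and 0.03, and those of the regulatory particle 0.09, 0.21 and 0.09. Averaged over times, the core median minus the regulatory particle median was -0.06 in the knockdown, 0.02 in overexpression and 0.13 between overexpression and knockdown. These medians are described and not tested.

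**Figure D3:**
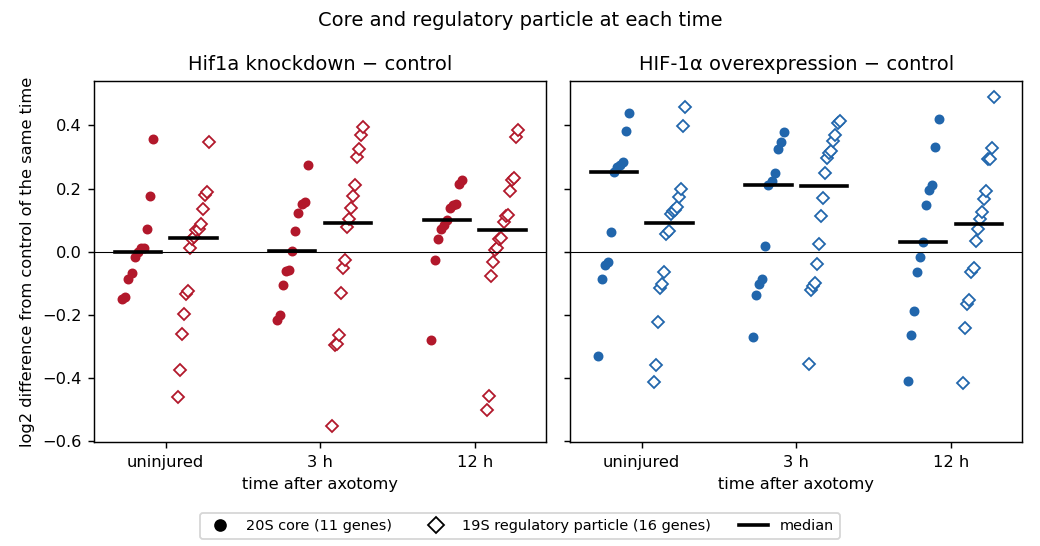
Log2 difference from the control of the same time for each tested gene of the 20S core (filled circles, 11 genes) and the 19S regulatory particle (open diamonds, 16 genes), in knockdown (left) and overexpression (right), with a line at the median. The medians of both complexes lie between -0.00 and 0.25 at every time, and single genes spread to both sides of 0.

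Within single times, 5 of 35 genes passed at all 3 times in the knockdown (Psmf1, Psme4, Psmd5, Psmc3 and Psmc1), against a background of 30.4%. Psmf1 had log2 differences of -1.38 uninjured, -1.73 at 3 h and -1.47 at 12 h. Psme4 had 0.75, 0.75 and 0.53 at these times, Psmd5 -0.66, -0.56 and -0.46, Psmc3 -0.46, -0.55 and -0.50, and Psmc1 0.35, 0.37 and 0.39. In overexpression 3 of 35 passed at all 3 times, against 24.2%: Psmd4 with 0.46, 0.35 and 0.49, Psme1 with 0.37, 0.58 and 0.48, and Psmb3 with 0.38, 0.35 and 0.42. The overexpression groups uninjured and at 12 h hold 1 array each and borrow the spread of the other groups. The construct by time interaction (limma F test) passed for 0 of 35 proteasome genes and 0 of all genes, and at an unadjusted p under 0.05 for 0 of 35 and 6.65% of all.

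The question of the axotomy comparisons was which genes respond to the cut, averaged over the 3 constructs. No proteasome gene passed at 3 h (differences from -0.10 to 0.12, background 0.0359% of all genes tested) or at 12 h (-0.16 to 0.22, background 0.538%). At an unadjusted p under 0.05 there were 0 at 3 h and 1 at 12 h. At 3 h the smallest p-values were those of the ATPase Psmc5 (0.12, SE 0.0717, adjusted p = 0.726) and Psmd12 (0.11, SE 0.0702, adjusted p = 0.785), and at 12 h those of Psmd12 (0.22, SE 0.0751, adjusted p = 0.189) and Psme1 (-0.16, SE 0.0774, adjusted p = 0.408).

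For Psmd12, knockdown cultures had 1499 and 1378 uninjured, 1604 and 1716 at 3 h and 1910 and 2119 at 12 h. Overexpression cultures had 2169 uninjured, 2506 and 2373 at 3 h and 2407 at 12 h. Control cultures had 1951 and 1814 uninjured, 1776 and 1868 at 3 h and 2007 and 1900 at 12 h. The 3 h and 12 h values lie above the uninjured values in knockdown and overexpression cultures and overlap them in control cultures. On the dim second Psmd12 probe the 12 h difference was -0.22, opposite in sign, and it did not pass (adjusted p = 0.509).

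**Figure D4:**
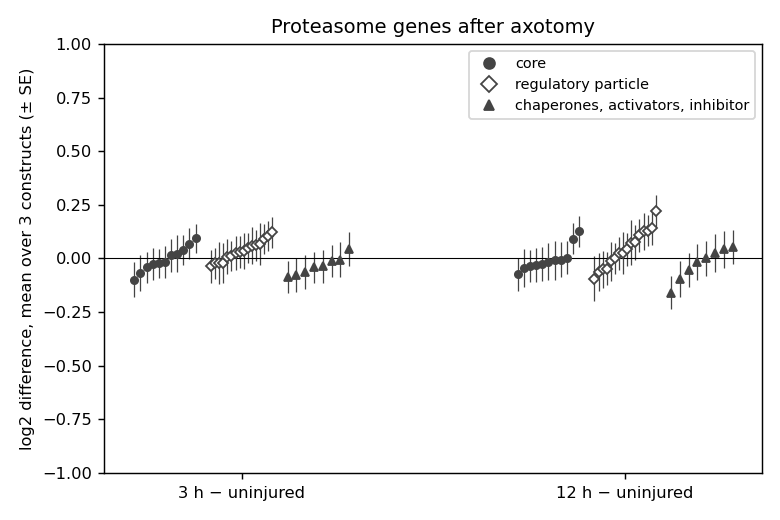
Log2 difference from uninjured cultures at 3 h and 12 h after axotomy, averaged over the 3 constructs (± SE), for the 35 tested proteasome genes: core (circles), regulatory particle (diamonds), and chaperones, activators and inhibitor (triangles). Values run from -0.10 to 0.12 at 3 h and from -0.16 to 0.22 at 12 h.

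Probes of the same gene did not always give the same answer. For 14 members several probes passed the filter, which made 18 pairs. Before log2, 50 was added to each intensity, which understates differences on dim probes. The difference between the 2 probes of a pair was compared between each construct and control with a two-sided exact permutation test over arrays, 36 tests in all with Benjamini-Hochberg adjustment. The smallest p these designs allow is 0.002165 for 6 against 6 arrays and 0.004762 for 4 against 6. The pairs were looked at after the single-gene results were known. The files used here do not say which transcript a probe reads.

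Psmf1 showed the widest disagreement. Its brighter probe, ILMN_1233929, had 6405 uninjured, 7123 and 6361 at 3 h and 6240 at 12 h in overexpression, against 4377, 5536 and 6095 in control cultures. Its second probe, ILMN_3094023, had 326 uninjured, 506 and 326 at 3 h and 450.4 at 12 h in overexpression, against 903, 1276 and 1350 in control cultures. So under overexpression every array was above the control range on one probe and below it on the other.

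In the probe-level fit the overexpression differences of Psmf1 were 0.26 (adjusted p = 0.0159) and -1.48 (adjusted p = 5.54e-10), and the pair diverged by 1.78 (exact permutation adjusted p = 0.0343). In the knockdown both Psmf1 probes fell, with differences of -1.53 and -1.89, and the second had 252, 275 and 321 on the knockdown arrays. The fall in the knockdown therefore stands on both probes, and the direction under overexpression depends on the probe.

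Psmb2 had overexpression differences of -0.22 on ILMN_2765890 (adjusted p = 0.0176) and 0.29 on ILMN_2949632 (adjusted p = 0.00354), diverging by -0.49 (exact permutation adjusted p = 0.0343). Psmd12 had 0.30 (adjusted p = 0.00228) on ILMN_2896805 and -0.61 (adjusted p = 2.11e-04) on the dim ILMN_1216211, diverging by 0.91 (exact permutation adjusted p = 0.0343). With the mean of a gene's probes in place of the brightest, the overexpression difference was -0.61 for Psmf1, 0.04 for Psmb2 and -0.16 for Psmd12, each of the opposite sign.

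In the knockdown, the pair of Psme4 diverged by 0.56 and that of Psmf1 by 0.41 (exact permutation adjusted p = 0.0343 each). The second Psme4 probe, ILMN_1230087, was dim, with 29.5, 41.1 and 50.2 in knockdown and 26.7, 31.6 and 41.7 in control cultures, and did not pass (0.10, adjusted p = 0.201). The offset understates differences on this probe, and its share in the divergence of the Psme4 pair was not tested. Some other second probes passed where the brightest probe did not. In the knockdown these were probes of Psmb2 (0.17, adjusted p = 0.0353), Psmd2 (-0.28, adjusted p = 0.00511) and Psmd9 (-0.29, adjusted p = 0.00251). In overexpression they were probes of Psmb7 (0.23, adjusted p = 0.0447), Psmd2 (-0.23, adjusted p = 0.0460) and Psmd10 (-0.24 and -0.22, adjusted p = 0.0379 and 0.0246), and Psmd9 on ILMN_2594811 was higher in overexpression than in knockdown by 0.40 (adjusted p = 4.79e-04). Probes of Psme1 and of Psmd10 moved together. Psme1 rose under overexpression by 0.48 and 0.45 on its 2 probes, and the 3 probes of Psmd10 fell in the knockdown by 0.22, 0.20 and 0.33. In the knockdown the 2 Psme1 probes had -0.16 and -0.23 (adjusted p = 0.0537 and 0.00471 in the probe-level fit).

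**Figure D5:**
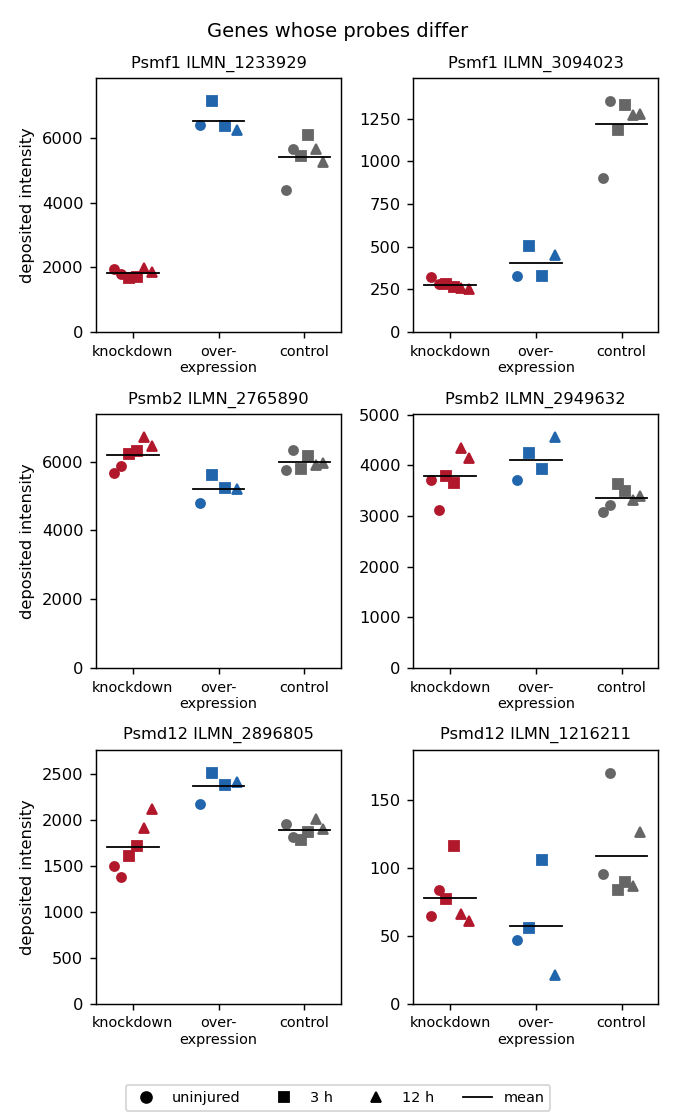
Deposited intensity on each of the 16 arrays for both probes of Psmf1, Psmb2 and Psmd12, by construct, with circles for uninjured cultures, squares for 3 h and triangles for 12 h and a line at the mean. In overexpression, the left probe of Psmf1 lies above and the right probe below the control arrays, while both lie below them in knockdown.

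Other genes of the pathway were read from lists chosen by role, beside the 59.7% of all genes tested that passed in the knockdown and 55.3% in overexpression. These short lists are described and not tested. Of 6 tested genes of the route that activates NRF1, 3 rose in the knockdown and the same number in overexpression, and 0 fell in either. They were the ubiquitin ligase gene of the endoplasmic reticulum Syvn1 (0.65 in knockdown, 0.40 in overexpression, each against control), its partner Sel1l (0.28 and 0.999), and the cofactor of the extraction ATPase Nploc4 (0.30 and 0.39). Nfe2l1 itself (0.02 and -0.14), the protease gene Ddi2 (0.06 and 0.11) and the extraction ATPase gene Vcp (0.09 and 0.04) did not pass.

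Of the 4 chaperones of core assembly, 2 fell in the knockdown, Psmg3 (-0.42) and Psmg1 (-0.33), and 1 fell in overexpression, Psmg2 (-0.50). Of 5 tested partners of the regulatory particle, the small subunit gene Sem1 rose in the knockdown (0.39), and the deubiquitinase genes Uchl5 (-0.36) and Usp14 (-0.32) fell in overexpression. Of the 3 immunoproteasome genes, Psmb9 rose in knockdown (0.39) and overexpression (0.43), Psmb10 fell in the knockdown (-0.93) and had -0.17 in overexpression, and Psmb8 passed in neither.

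Of 3 tested ubiquitin genes, the activating enzyme gene Uba1 rose (0.71) and the ubiquitin fusion gene Rps27a fell (-0.34) in the knockdown, and 0 passed in overexpression (2 at an unadjusted p under 0.05). Of 7 tested shuttle and substrate-handling genes, 3 rose and 1 fell in the knockdown and 1 rose and 1 fell in overexpression. Among them Zfand2a, a partner of the regulatory particle under arsenite stress, rose in the knockdown (0.996), and the ubiquilin gene Ubqln1 fell in overexpression (-0.66) while Ubqln4 rose (0.38).

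Psmc3ip, outside the proteasome, had 274, 322 and 364 on the knockdown arrays, against 523, 552 and 598 on the control arrays, and fell by 0.71 (SE 0.0841, adjusted p = 2.28e-07). In overexpression it had 467 uninjured, 634 and 448 at 3 h and 527 at 12 h (-0.12, SE 0.0972, adjusted p = 0.315).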

How the data were processed

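Total RNA for 16 arrays was amplified, labelled with biotin and read on Illumina BeadChips of the Mouse Ref-8 v2.0 design, per the labels and the study's design text. The deposited table holds 1 intensity per probe and sample, made by the authors with GenomeStudio, per the submitters' processing notes; the version is not given in the sources used here. These deposited intensities are linear, run from -21.7 to 40784.5, and 27.2% lie below 0, so they were already background-subtracted. They had also been normalized by the authors. The intensities, ranges and overlaps given above are therefore of normalized values. A second deposited file gave gene symbols. Its 32 columns of per-sample values match no sample label and were not used. Symbols were updated with RefSeq genes of GRCm38.p6 (20733 probes current, 3872 updated, 1092 kept).

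These already normalized intensities were corrected with normexp (offset 50), log2-transformed and normalized again by quantiles in limma 3.58.1 (R 4.3.3). Probes above 16 on at least 2 arrays were kept (15086), and the brightest probe stood for each of 11151 genes. One fit with 9 group means (7 residual and 13.2 prior degrees of freedom) gave every comparison, and the interaction came from an F test. Differences of dim genes are understated by the offset. The number of arrays limits the precision, and construct and any unlabelled batch cannot be told apart.

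Full values are given for Psmb5, Psmb6 and Psmb7 and, in each construct comparison, for the 4 widest rises and the 4 widest falls among members that passed. For axotomy, the 2 smallest p-values are given, and for each pathway list up to 3 genes, plus, named after their values were seen, the other 3 tested genes of the NRF1 route. The other members are given by counts and values. Members and lists were chosen with earlier results of these data known. Same-numbered replicates were not taken as pairs. Of 21 pairs of groups, 7, all 3 pairs of control groups among them, had a correlation over 0.1 (range -0.12 to 0.24). These correlations do not settle whether the numbers pair arrays, within a construct or across constructs. The scripts were tested on simulated data. Alternatives were other background corrections, normalizations, filters and probe rules, the replicate number as a block, fits on the compared arrays only, and leaving out each array.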

Additional observations from a re-analysis of the deposited data

Results flagged for a closer look

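On 7 of 69 sets of arrays checked (23 named genes in 3 constructs), the highest array stood apart from the rest of its construct by Dixon's criterion; chance gives about 1 in 20 sets. Psmb1 had 5532 on replicate 1 at 3 h in overexpression, with the next array at 4620, and 4755 on replicate 1 at 12 h in control cultures, with the next at 4324. Psmb5 had 514 on the uninjured overexpression array, with the next at 449. Psmd13 had 7033 on replicate 1 at 3 h in overexpression, with the next at 6570. Psmd4 had 11324 on the 12 h overexpression array, with the next at 10396. Psmd6 had 45.9 on replicate 2 at 3 h in overexpression, with the next at 33.3, and 87.5 on replicate 2 at 12 h in control cultures, with the next at 60.8. Psmb1 and Psmd13 both stand apart on the same overexpression array, replicate 1 at 3 h.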

How the results depend on the processing

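Counts of genes that rose and fell kept within 1.5 times of those reported under each alternative except one: without replicate 1 of the uninjured control, 6 genes fell in the knockdown. Leaving out each array gave 4 to 7 rises and 6 to 10 falls in the knockdown, 11 to 12 and 5 to 7 in overexpression, 12 to 14 and 4 to 7 between overexpression and knockdown, and 0 to 0 at 3 h and 12 h after axotomy. The core median minus the regulatory particle median then ran from -0.08 to -0.03, from -0.05 to 0.07 and from 0.07 to 0.19 in the 3 construct comparisons. With the mean of a gene's probes it was 0.089 in overexpression. With the replicate number as a block, 5 genes rose and 8 fell in the knockdown, 12 and 7 in overexpression, and 12 and 5 between the constructs. Whether the numbers pair the arrays was not settled. Under the mean of probes the overexpression difference reversed for Psmf1 (-0.61), Psmb2 (0.035) and Psmd12 (-0.16), whose probes disagree. Differences that had not passed also changed sign: Psmb6 in the knockdown was -0.00134 with cyclic loess, and leaving out each array gave -0.00446 to 0.072 for Psmb6 and -0.12 to 0.00878 for Psmb7 in the knockdown and -0.00399 to 0.074 for Psmb7 in overexpression; the cause was not tested. Of 1411 single-gene values under alternatives, 1323 kept direction and side of the threshold. Psme1, Psmd12, Psmd6, Psma7 and Psmd4 lost their knockdown calls most often, keeping them in 9, 12, 13, 15 and 20 of 25 alternatives. Leaving out the lone uninjured or 12 h overexpression array left no overexpression average, so 14 of 16 such fits gave one. No scaling moved the median of all genes by over 0.1, but every scaling started from intensities that the authors had already normalized. The stability therefore does not show how the results would stand on unnormalized intensities. Dim probes (Psmc6, Psmd6, Psmd5) are limited by signal over background.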
